A study of Sus scrofa with 6 samples.

Results

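The mitochondrial ribosomal proteins were described in Sertoli cells from immature pig testis, which support developing germ cells, with and without melatonin, a hormone of the pineal gland. The genes were chosen by symbol, MRPL for the large and MRPS for the small subunit followed by a digit, and 64 of the 20731 genes in the table carried such a symbol, 40 of the large and 24 of the small subunit. Total RNA was sequenced from 3 libraries labelled Control and 3 labelled MT, whose cells had been kept with 10 nM melatonin for 36 h. No agent, dose, solvent or time is given for Control, and no age, breed or genetic change is given for either group. The labels enter the cells under cell line with no line name, and do not say whether the 3 libraries of a group came from separate cultures or animals, so the p-values below reflect no more than how far these libraries scatter, possibly for technical reasons.

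The mitochondrial ribosome translates the messenger RNAs of the mitochondrial genome, which encode core subunits of the respiratory chain and of ATP synthase. Its ribosomal RNAs are copied from mitochondrial DNA, while its proteins are encoded in the nucleus, made in the cytosol and imported. Many of these proteins have a bacterial counterpart and others are found only in mitochondria. Sertoli cells are known for turning glucose into lactate, which the germ cells beside them burn in their own mitochondria.

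Of the 77 RefSeq symbols that fit the naming rule, 13 were not matched to a row and were not analysed here (MRPL1, MRPL14, MRPL23, MRPL27, MRPL32, MRPL41, MRPL42, MRPL53, MRPS16, MRPS17, MRPS21, MRPS28 and MRPS36). Among the 64 genes, 60 had a mean of at least 1 FPKM (fragments scaled to gene length and library size) over the 6 libraries and were tested, 36 of the large and all 24 of the small subunit. MRPS7 (mean 1.25 FPKM) and MRPS18C (1.59) lay just inside this limit. MRPL43 lay just outside it at 1.30, 1.11 and 0.089 FPKM in Control against 0.692, 0.878 and 0.688 in MT. MRPL28 lay between 0.209 and 0.327 FPKM, and MRPL10 and MRPL55 were each listed at 0 in 5 of the 6 libraries.

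The libraries held 19579279 to 21500665 reads, of which 55075 to 65077 fell on the 64 genes. Control 3 stood apart from the other 2 Control libraries. Its correlation with Control 1 and Control 2 over the tested genes was 0.938 and 0.939, against 0.993 between those 2 and 0.952 to 0.975 with the MT libraries, and its share of reads from the 13 mitochondrial mRNAs was 2.72% against 4.35% to 5.56% elsewhere. Of 13 Sertoli markers, 10 were in the table and 5 reached a mean of 1 FPKM. CLU (2909 to 3894 FPKM), AMH (11.3 to 15.6), WT1 (10.0 to 12.8), INHBB (3.26 to 5.06) and SOX9 (1.61 to 2.40) were present in every library, and INHA, DHH, DMRT1, KITLG and TF stayed under 0.5 FPKM. TAGLN, a smooth muscle marker also made by peritubular myoid cells, was at 154 to 257 FPKM and highest in Control 3, while ACTA2 and MYH11 were near 0. DES was at 5.55, 5.66 and 6.62 FPKM in Control against 8.69, 9.43 and 5.81 in MT. CNN1 lay at 0.83 to 1.07 FPKM over the 6 libraries. The 5 myoid markers summed to 160.33 to 264.8 FPKM in Control and 161.71 to 194.19 in MT, and the 10 Sertoli markers to 2938 to 3454 and 3323 to 3922. Nearly all of the myoid sum was TAGLN and nearly all of the Sertoli sum was CLU in every library. The markers of Leydig cells summed to 3.74 to 4.87 FPKM over the 6 libraries, and those of germ cells to 0.78 to 1.53. Of the germ cell markers UCHL1 lay at 0.66 to 1.35 FPKM, SYCP3 at 0 to 0.45, and DDX4 near 0. The 5 markers of leukocytes and endothelium in the table summed to 3.43 to 4.50 FPKM in Control and 4.81 to 5.67 in MT, with no overlap. Most of the sum was the macrophage marker CD68 (3.18 to 4.14 against 4.50 to 5.30), while CSF1R, CD163 and CDH5 were at 0.05 or less and PECAM1 at 0.15 to 0.31. The part of other cells in the results was not tested, and in bulk RNA fewer cells of a type and less RNA per cell cannot be told apart.

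Messenger RNA levels of members of this one particle ran from 1.25 to 109.7 FPKM. The median member stood at 20.8 FPKM, above the 8.11 FPKM of all 10950 tested genes, with a median of 26.6 in the large and 17.6 in the small subunit. MRPL12 (chromosome 12, 1200458 to 1203817, in the Sscrofa11.1 build as are all positions here), the stalk protein, which in human cells also binds the mitochondrial RNA polymerase, led the large subunit. It was at 101, 102 and 128 FPKM in Control against 112, 105 and 110.2 in MT. Control 3 gave the highest value and the MT libraries lay within the Control range.

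MRPL20 (chromosome 6, 63670750 to 63675834), a core protein with a bacterial counterpart, followed at 83.0, 89.9 and 111 FPKM in Control against 90.6, 79.0 and 80.7 in MT. The small subunit was led by MRPS26 (chromosome 17, 32629281 to 32631434), a protein found only in mitochondria, at 77.6, 76.1 and 119.8 FPKM in Control against 85.5, 76.4 and 91.4 in MT. In both genes Control 3 was again the highest library and the groups overlapped. MRPS15 (chromosome 6, 92541506 to 92547839), the counterpart of a bacterial platform protein, came next at 44.0, 43.2 and 41.3 FPKM in Control against 42.3, 38.8 and 39.2 in MT.

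At the low end of the large subunit stood MRPL19, a core protein (chromosome 3, 67604613 to 67611323; mean 3.83 FPKM), and MRPL47 of the peptide exit site (chromosome 13, 117626846 to 117656388; mean 3.85), and their values overlapped from library to library. MRPS7, of the head of the small subunit, was at 1.31, 1.35 and 1.03 FPKM in Control against 0.839, 1.73 and 1.27 in MT, from as few as 26 reads in a library, and it was the 1 tested gene under 100 reads. FPKM is divided by a gene length that the authors' annotation sets, which ran from 526 bases for MRPL33 to 13320 for MRPS30, so the order between genes rests on these lengths. The ranking by level is plotted with every library shown.

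**Figure D1:**
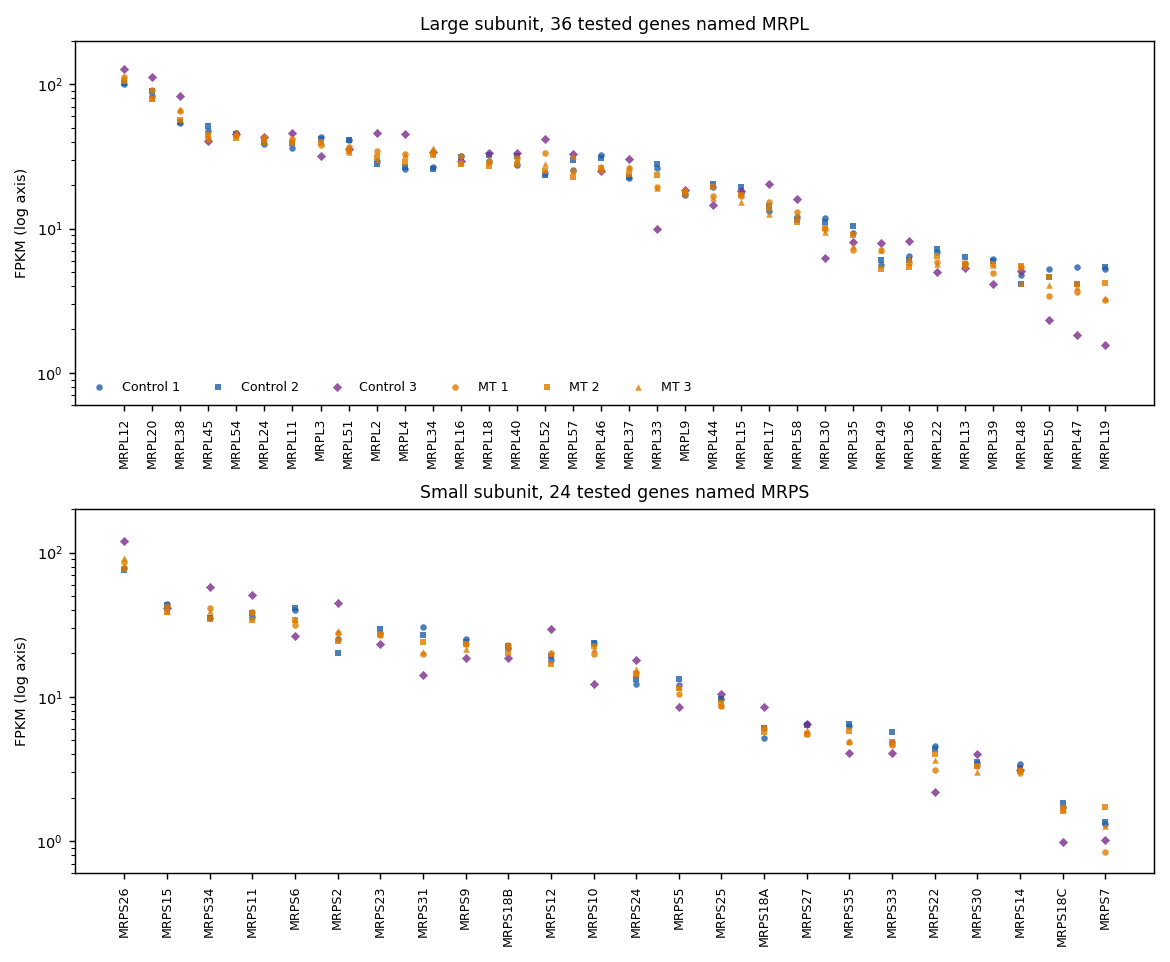
FPKM of the 36 tested MRPL and 24 tested MRPS genes on a log axis, ordered by mean level, with a point for each of the 6 libraries. Levels run from 109.7 FPKM (MRPL12) to 1.25 (MRPS7), and Control 3 (purple) often lies above or below the other 5 libraries.

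The comparison of MT with Control asked how this gene set stood after melatonin. In limma on log2(FPKM + 1), with Benjamini-Hochberg adjustment over all tested genes, 0 of the 60 genes passed an adjusted p of 0.05, and 0 of 10950 passed in the whole table (0%). At an unadjusted p under 0.05 there were 0 members and 517 genes of the whole table, and limma voom on recovered reads passed 0 genes with 495 at that unadjusted level. The 60 log2 differences (MT minus Control) ran from -0.21 to 0.24 with a median of -0.04, and 22 were above 0 and 38 below, while the median of all tested genes was 0.02. The large subunit had a median difference of -0.03 with 13 genes above 0 and 23 below, and the small subunit -0.07 with 9 above and 15 below. Without Control 2 the small subunit median turned to 0.016.

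The 95% interval of the difference stayed inside 2-fold of FPKM + 1 in either direction for 60 of 60 members, and for 10419 of the 10950 tested genes. It stayed inside 1.41-fold of FPKM + 1 for 37 of 60 members, and for 5350 of the 10950 tested genes. The log2(FPKM + 1) scale understates fold changes of low genes such as MRPS7 and MRPL19, so these bounds do not hold as fold changes of FPKM for such genes. Intervals were widest for MRPL33, MRPL19 and MRPL47, whose value in Control 3 was far below the other Control libraries.

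In 0 members did all 3 MT values lie above the 3 Control values, which 6.24% of tested genes showed, and in 4 they all lay below, which 4.99% of tested genes showed. MRPS27 (chromosome 16, 48509064 to 48642571), a pentatricopeptide repeat protein of the small subunit, was at 6.45, 6.39 and 6.52 FPKM in Control against 5.50, 5.54 and 5.94 in MT. Its log2 difference was -0.16 (SE 0.10, limma p 0.146 unadjusted), and its Control SD of 0.064 FPKM was the smallest of these 4 genes. MRPS25 (chromosome 13, 69441100 to 69465912), found only in mitochondria, was at 9.74, 9.68 and 10.5 FPKM in Control against 8.60, 9.06 and 8.82 in MT, a log2 difference of -0.16. MRPS30 (chromosome 16, 29110736 to 29200865) was at 3.51, 3.57 and 4.02 in Control against 3.34, 3.32 and 3.04 in MT. MRPL15, a core protein whose values were seen before it was picked, was at 17.6, 19.3 and 18.3 in Control against 16.9, 17.2 and 15.2 in MT. In each of these 4 genes the groups were apart by a small step and limma's adjusted p was 0.9998.

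**Figure D2:**
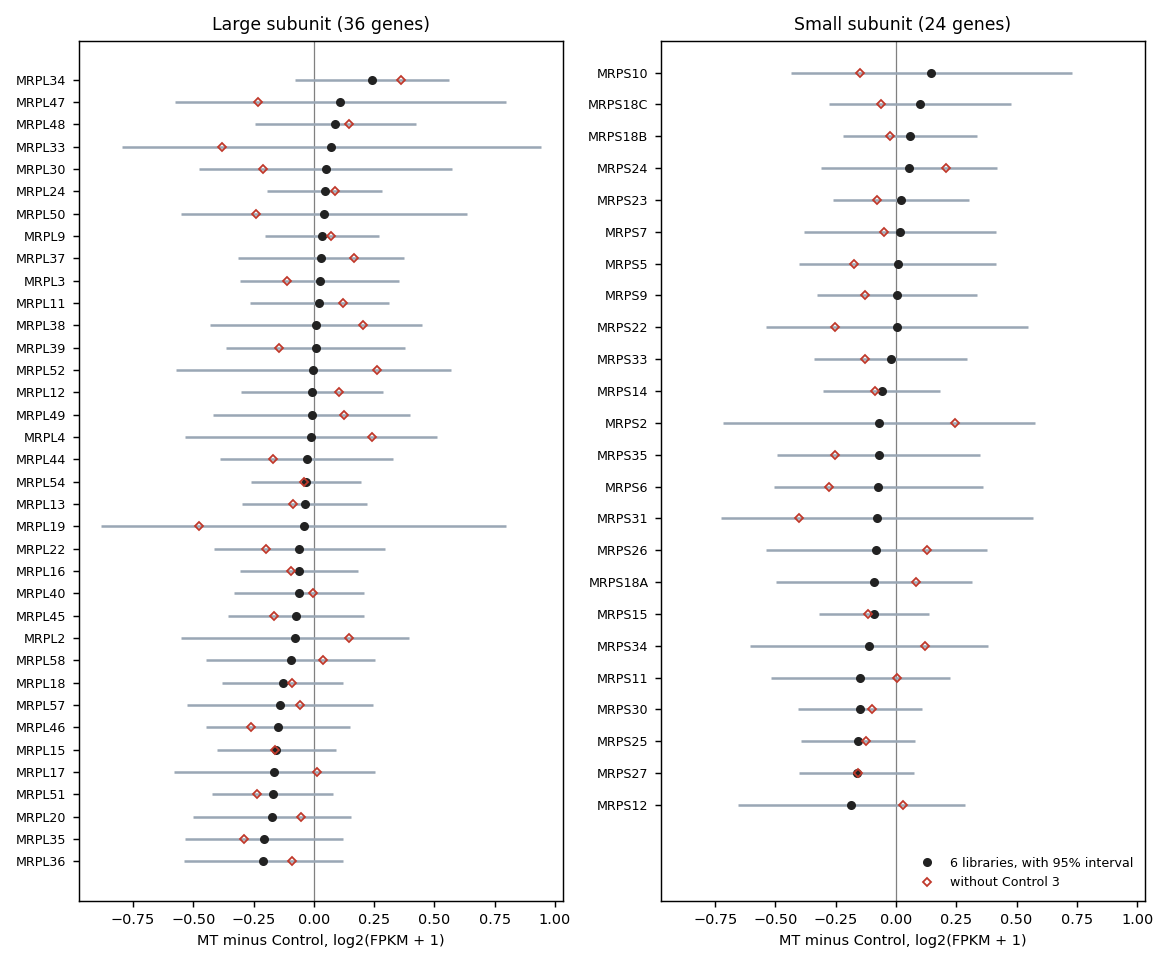
Log2 difference of MT minus Control on log2(FPKM + 1) for each tested gene, with its 95% interval over 6 libraries (filled circles and bars) and the value without Control 3 (open diamonds). All 60 differences over 6 libraries lie between -0.21 and 0.24, and leaving out Control 3 moves 27 of them to the other side of 0.

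By place in the large subunit, the stalk proteins MRPL12 and MRPL11, which binds at the base of the stalk, had differences of -0.01 and 0.02 (0.10 and 0.12 without Control 3). The 7 tested proteins of the central protuberance, the crown of the subunit that faces the small subunit, had a median of -0.06 with 2 above 0 and 5 below, which turned to 0.04 with 4 above and 3 below without Control 3. Among them MRPL58 (chromosome 12, 6258674 to 6265865), a peptidyl-tRNA hydrolase that is also a structural part of the subunit, was at 12.04, 11.6 and 15.9 FPKM in Control against 13.1, 11.14 and 12.2 in MT. Control 3 was its highest library, and the groups overlapped. MRPL48 (chromosome 9, 8221641 to 8267251), of the same region, was at 4.76, 4.13 and 5.11 in Control against 5.43, 5.54 and 4.17 in MT. Its difference of 0.09 (SE 0.14; 0.14 without Control 3) was less than the spread between libraries.

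The 5 tested proteins around the peptide exit site, where the new chain leaves toward the inner membrane, had a median of -0.06 (-0.17 without Control 3). The 14 tested core proteins had a median of -0.04, with 5 above 0 and 9 below (-0.09 without Control 3), and held both ends of the range over 6 libraries. MRPL34 (chromosome 2, 60377904 to 60378967) had the highest difference at 0.24 (SE 0.13, limma p 0.117 unadjusted), from 26.7, 25.9 and 34.1 FPKM in Control against 33.8, 32.2 and 36.3 in MT. Control 1 and Control 2 lay below all MT libraries and Control 3 lay among them. MRPL36 (chromosome 16, 79001488 to 79002781) had the lowest over 6 libraries, -0.21 (SE 0.14), with 6.44, 6.04 and 8.22 FPKM in Control against 5.76, 5.41 and 6.21 in MT. Without Control 3, its highest library, the difference was -0.09, and MRPL19 then had the lowest value of the members (-0.48).

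MRPL35 (chromosome 3, 58559523 to 58575110), another core protein, was at 9.27, 10.4 and 8.11 FPKM in Control against 7.11, 9.01 and 7.52 in MT, a difference of -0.21 (SE 0.14). Its groups overlapped through MT 2 and Control 3. The 8 tested proteins of the large subunit listed as specific to mitochondria, outside the places named above, had a median of -0.02 (-0.10 without Control 3). Of these, MRPL51 (chromosome 5, 64167418 to 64168986) was at 41.4, 41.1 and 35.8 FPKM in Control against 36.5, 34.3 and 33.7 in MT, a difference of -0.17 (SE 0.11, limma p 0.152 unadjusted).

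In the small subunit, the 4 tested proteins listed for the decoding centre and mRNA entry had a median of -0.03, which turned to 0.12 with 3 above 0 and 1 below without Control 3. MRPS12 (chromosome 6, 47728518 to 47732042), the counterpart of the bacterial decoding protein in which streptomycin resistance arises, was at 17.96, 19.2 and 29.5 FPKM in Control against 20.03, 16.9 and 20.1 in MT. Control 3 was far above the other 5 libraries, which overlapped. The 4 head proteins had a median of 0.01 with 3 above 0 and 1 below, which turned to -0.11 with 0 above and 4 below without Control 3, and the highest among them was MRPS10 (chromosome 7, 37318344 to 37329246), at 23.5, 23.6 and 12.3 in Control against 19.9, 22.4 and 21.3 in MT. Its difference was 0.15 (SE 0.25) over 6 libraries and -0.15 without Control 3.

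The 5 tested platform and body proteins with bacterial counterparts had a median of -0.07. The 9 listed as specific to mitochondria had -0.08, with 2 above 0 and 7 below. Without Control 3 these medians were -0.06 and -0.13. Mammals carry 3 versions of the S18 protein. MRPS18B (chromosome 7, 23166314 to 23172718) was at 22.0, 22.4 and 18.6 FPKM in Control against 22.9, 20.2 and 22.4 in MT. MRPS18C (chromosome 8, 135019702 to 135026719) was at 1.72, 1.84 and 0.994 in Control against 1.72, 1.62 and 1.66 in MT. MRPS18A (chromosome 7, 38641755 to 38657472) was at 5.18, 6.09 and 8.47 in Control against 6.09, 5.71 and 6.22 in MT. MRPS18B lay above MRPS18A and MRPS18A above MRPS18C in all 6 libraries, and in each version MT overlapped Control.

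Within this gene set Control 3 departed further from Control 1 and Control 2, by median size, than each MT library did. The log2 difference of MT minus Control, with Control 3 in the Control mean, had a median size of 0.07 over the 60 genes. The gap between Control 1 and Control 2 had a median of 0.06 on the log2 scale over the 60 genes. Control 3 departed from the mean of those 2 by a median of 0.40 in size, with departures from -1.36 to 0.95. From the same mean, MT 1, MT 2 and MT 3 departed by medians of 0.18, 0.11 and 0.14 in size. Control 3 was the highest of the 6 libraries in 25 members (41.7%; 32.4% of tested genes) and the lowest in 23 (38.3%; 41.7% of tested genes). Over all tested genes these median sizes were 0.42 for Control 3 and 0.22, 0.13 and 0.22 for MT 1, MT 2 and MT 3.

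Control 3 was above Control 1 and 2 in some members and below them in others, as over the whole table. It lay more than 0.5 below in 11 members (18.3%; 25.4% of tested genes), led by MRPL33 (-1.36), MRPL19 (-1.30), MRPL47 (-1.02) and MRPS31 (-0.97). It lay more than 0.5 above in 10 members (16.7%; 14.5% of tested genes), led by MRPS2 (0.95), MRPL52 (0.79), MRPL4 (0.76) and MRPS34 (0.70). These were picked after their values were seen, as the extremes of the departure. MRPL33, a small core protein, was at 26.4, 27.9 and 9.98 FPKM in Control against 19.5, 23.4 and 19.2 in MT. MRPS2, the counterpart of a bacterial protein at the mRNA path, was at 25.4, 20.1 and 44.4 in Control against 27.9, 24.4 and 28.7 in MT. The MT libraries of MRPL33 lay between Control 3 and the other Control libraries.

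In 26 of the 60 members (43.3%; 36.3% of tested genes) all 3 MT values lay between Control 3 on 1 side and Control 1 and Control 2 on the other. The median departure of Control 3 was 0.12 in the large and -0.14 in the small subunit, and -0.02 over all tested genes. Across the 60 members the departure had a Pearson correlation of 0.395 with log2 mean FPKM and of -0.095 with log2 gene length, against 0.159 and -0.088 over the 10950 tested genes. These are descriptions across genes that share libraries, and whether RNA quality, cell makeup or another property of Control 3 had a part in them was not tested.

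MRPS11 (chromosome 1, 191310547 to 191321951), a platform protein, and MRPL46 (chromosome 1, 191321990 to 191331320), of the central protuberance, are neighbours with 38 bases between them, a pair picked after its values were seen. MRPS11 was at 35.8, 38.1 and 51.1 FPKM in Control against 38.5, 33.9 and 38.9 in MT. MRPL46 was at 32.4, 30.8 and 24.9 in Control against 25.4, 26.4 and 26.9 in MT. Control 3 was thus the highest library for MRPS11 and the lowest for MRPL46.

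**Figure D3:**
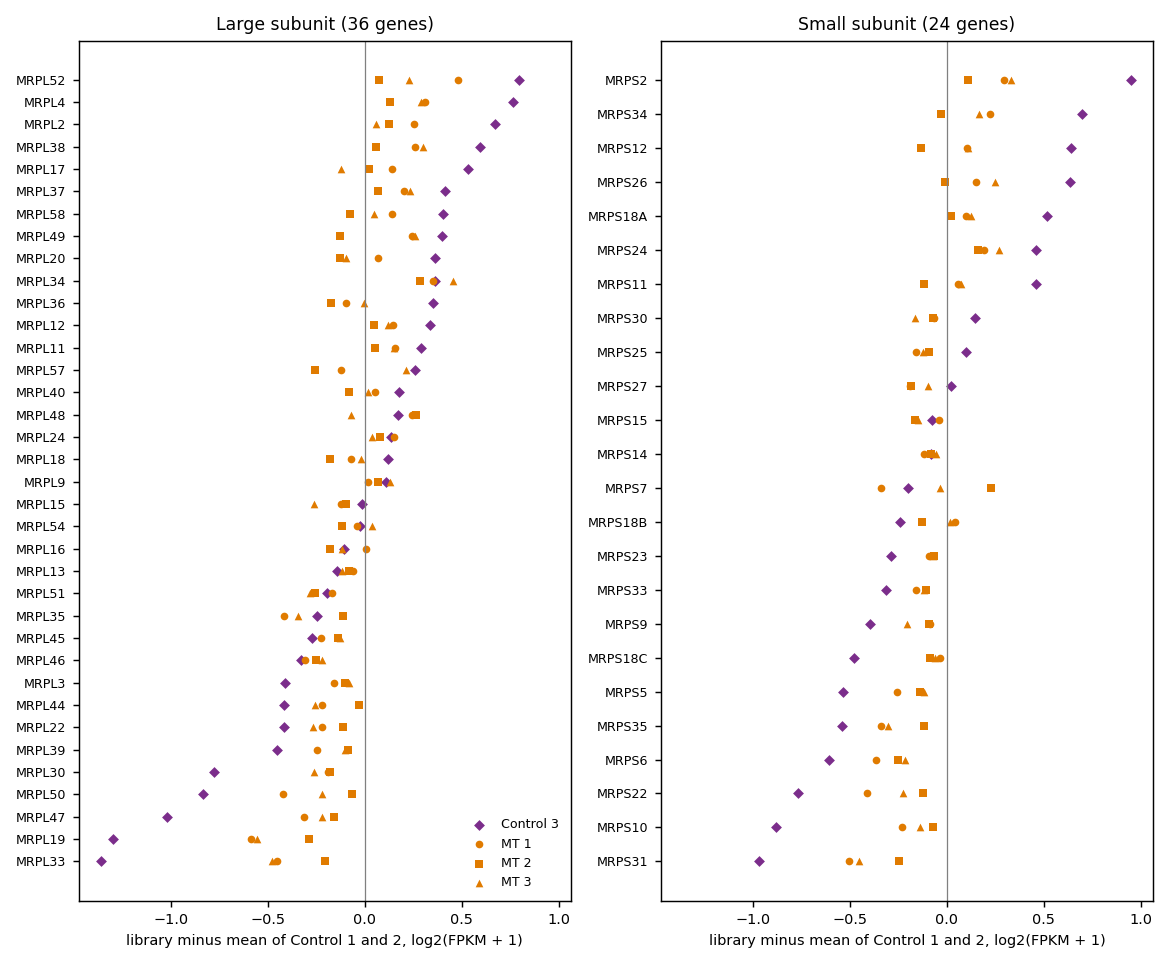
Departure of Control 3 (purple) and of the 3 MT libraries (orange) from the mean of Control 1 and Control 2, in log2(FPKM + 1), for each tested gene, ordered by the departure of Control 3. Control 3 runs from -1.36 to 0.95, and in 26 of the 60 genes the 3 MT libraries lie between Control 3 and both other Control libraries.

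Without Control 3, the MT values lay all above or all below Control 1 and Control 2 in 37 of the 60 members (61.7%; 56.2% of tested genes). In that fit 1 of the 60 members passed as higher in MT, where 4.28% of tested genes did, and 2 passed as lower, where 6.62% of tested genes did (limma, adjusted p under 0.05 over all tested genes). MRPL34 was higher, with a log2 difference of 0.36 (SE 0.07, adjusted p 0.037). MRPL19 was lower by the same test (-0.48, SE 0.11, adjusted p 0.044), from 5.27 and 5.41 FPKM in Control 1 and 2 to 3.22, 4.19 and 3.32 in MT, while the omitted Control 3 stood at 1.57. Its difference over 6 libraries was -0.04, so 1 library decided the call.

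MRPS31 (chromosome 11, 15450698 to 15472320), a small subunit protein found only in mitochondria, was at 30.3, 27.0 and 14.1 FPKM in Control against 19.9, 23.9 and 20.6 in MT. It passed as lower without Control 3 (-0.40, SE 0.10, limma adjusted p 0.048) and stood at -0.08 over 6 libraries. In both MRPL19 and MRPS31 the omitted library lay below all MT libraries, and in MRPL34 it lay within their range. Over the 60 members the median difference without Control 3 was -0.09, at -0.07 for the large and -0.09 for the small subunit, against -0.004 for all tested genes. The 95% interval without Control 3 again stayed inside 2-fold for 60 of 60 members, and for 10590 of the 10950 tested genes.

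The large and the small subunit were compared within each library by the mean log2(FPKM + 1) of their tested genes. The large subunit exceeded the small by 0.53, 0.54 and 0.58 in Control and by 0.60, 0.55 and 0.54 in MT, a mean of 0.55 ± 0.03 (SD, n = 3) and 0.56 ± 0.03. The groups overlapped, and the means differed by less than the spread between libraries. The large subunit mean itself was 4.34, 4.36 and 4.32 in Control against 4.32, 4.29 and 4.31 in MT, so the groups did not overlap, though the nearest libraries stood at 4.323 (Control 3) and 4.319 (MT 1). The small subunit mean was 3.81, 3.82 and 3.74 in Control against 3.72, 3.74 and 3.77 in MT, with overlap.

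By structure, MRPS18A and MRPS30 sit in the large subunit in spite of their names. Counted there, the excess of the large subunit was 0.35 ± 0.06 in Control and 0.35 ± 0.03 in MT (SD, n = 3). A mean of log2 levels weighs each gene alike and is no measure of assembled subunits.

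**Figure D4:**
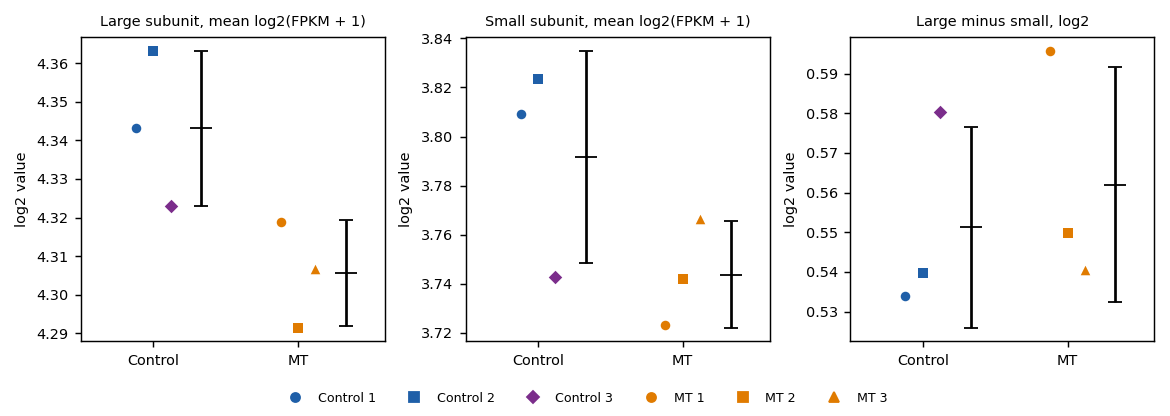
Mean log2(FPKM + 1) of the 36 large subunit genes, of the 24 small subunit genes, and their difference, for each library, with the mean and SD (n = 3) of each group as a bar. The difference lies between 0.53 and 0.60 in all 6 libraries and the groups overlap.

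The rest of the mitochondrial translation machinery was read from lists of genes grouped by function. The 4 tested ribosomal proteins that carry other names had 0 genes past the threshold over 6 libraries. PTCD3, a pentatricopeptide protein of the small subunit, was at 27.7, 27.4 and 20.2 FPKM in Control against 21.8, 23.2 and 23.3 in MT. It was the 1 gene of the 4 to pass without Control 3, as lower (limma adjusted p 0.0496), where 6.62% of tested genes did. CHCHD1 was at 9.76, 10.0 and 8.90 in Control against 8.45, 7.62 and 9.06 in MT. The groups overlapped in both genes.

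Of 25 tested genes for ribosome assembly and rRNA modification, 0 passed over 6 libraries, with a median of -0.02 that turned to 0.03 without Control 3. MRM3, which methylates the large mitochondrial rRNA, was at 12.8, 13.7 and 15.04 FPKM in Control against 11.02, 9.84 and 11.3 in MT (log2 -0.34, SE 0.11, limma adjusted p 0.90). YBEY, an endoribonuclease needed for the small subunit, was at 22.4, 22.3 and 24.1 in Control against 29.4, 26.0 and 28.3 in MT (log2 0.27, SE 0.10, limma adjusted p 0.97). In both the groups did not overlap. Of the 25 genes, 1 had all MT values above Control and 2 all below, where 6.24% and 4.99% of tested genes did. Without Control 3, YBEY and MRM1 passed as higher and GTPBP10 as lower, where 4.28% and 6.62% of tested genes did.

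Of 17 tested translation factors and activators, 0 passed over 6 libraries, with a median of -0.02, and of 5 transcription genes 0 passed, with a median of -0.05. Without Control 3 these medians were -0.12 and -0.22. In that fit MTRF1, a release factor family member, and TFAM, which packs and transcribes mitochondrial DNA, passed as lower. Each was the 1 gene of its list to pass, where 4.28% of tested genes passed as higher and 6.62% as lower. OXA1L, which inserts the ribosome's products into the inner membrane, was at 17.3, 17.4 and 15.4 FPKM in Control against 19.3, 18.02 and 19.7 in MT, with no overlap. It was the 1 gene of the 17 with all MT values above Control, and 0 had all below, where 6.24% and 4.99% of tested genes did. TACO1, an activator of COX1 translation, had a difference of -0.10. TFB2M, a transcription factor of mitochondrial DNA, stood at -0.10 over 6 libraries and -0.22 without Control 3, and MTERF1, a termination factor, at 0.12 and -0.13.

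Of the 13 mRNAs the ribosome translates, 0 passed over 6 libraries, with differences from -0.92 to 1.37 and a median of 0.14 that turned to -0.06 without Control 3. In 4 of the 13 (CYTB, ND1, ND4 and ND4L) all MT values lay above Control, where 6.24% of tested genes did. In 0 they all lay below, where 4.99% of tested genes did. CYTB, cytochrome b, was at 978, 904 and 651 FPKM in Control against 2225, 2502 and 1781 in MT. Without Control 3 it passed as higher (limma adjusted p 0.017), while ND5, ND6, ATP8 and COX3 passed as lower. Over all tested genes 4.28% passed as higher and 6.62% as lower in that fit. ND4L, a subunit of complex I, was at 1160, 1165 and 690.2 in Control against 1500.1, 1436 and 1331 in MT. These differences spanned a wider range than those of the ribosomal protein genes, and the mitochondrial rRNAs were not analysed here.

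The cytosolic ribosomal proteins, which build the other ribosome of the cell, served for comparison. Of 44 tested, 0 passed over 6 libraries, and their median difference was 0.10 with 38 above 0 and 6 below, against -0.04 with 22 above and 38 below for the mitochondrial set. Without Control 3 the medians were 0.19 and -0.09. No test of the difference between the sets was made, since genes of a set share libraries and are not replicates. Cytosolic ribosomal proteins have many near-identical copies, so the counting of shared reads makes their values uncertain.

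The gene spans of 19 of the 59 tested members placed on a named chromosome overlapped another RefSeq gene, 14 of them a protein-coding one. They include MRPL19 with GCFC2, MRPS27 with PTCD2, MRPS25 with NR2C2, MRPS18B with PPP1R10 and MRPL47 with ACTL6A. The strand setting of the counting is not given in the sources used here, so reads of such overlapping genes may not be told apart.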

How the data were processed

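RNA-seq of 6 libraries was given as 1 table of FPKM, which the authors deposited with a column per library. Per the submitters' processing notes, bcl2fastq, HISAT2, featureCounts and Subread were used with Sscrofa11.1; no version, annotation release or strand setting was found in those notes. FPKM is tied to each library's sum and to the annotated gene length. Groups and replicate numbers come from sample titles.

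Whole reads, gene lengths and library totals were recovered from the steps of low values; 10950 tested genes (100.0%) gave whole reads within 0.01. Symbols were matched for 13173 of 20731 genes (63.5%), and coordinates were taken by symbol from RefSeq Sscrofa11.1. The tests used limma 3.58.1 under R 4.3.3 on log2(FPKM + 1) of genes averaging 1 FPKM or more (lmFit, eBayes with trend, two-sided, Benjamini-Hochberg over 10950 genes, threshold 0.05). The fit was checked on simulated counts with a fixed dispersion and no library set apart. Its power with Control 3 as found was therefore not tested. Python 3.11.15, numpy 2.4.6, pandas 2.3.3 and matplotlib 3.10.9 were used. Library pairs of a group differed by a chi-square per degree of freedom of 6.3 to 149.1, where sampling noise alone gives 1, and all were kept as separate. Alternatives were other pseudocounts, filters, scalings, variance models, sample weights, voom on recovered reads, a replicate block and leaving out each library.

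The members and lists were chosen with earlier results of these data known. Members named are those with the 5 smallest p in each direction, the 2 highest and 2 lowest of each subunit, MRPL12, MRPL58, MRPS12, the MRPS18 genes and MRPS30, and those passing without Control 3 (22 genes); the pairs and extremes named otherwise were picked after their values were seen.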

Additional observations from a re-analysis of the deposited data

How the results depend on the processing

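Under other pseudocounts, filters, scalings, variance trend, voom on recovered reads and the replicate block, 0 genes passed, as in the fit reported. With limma's sample weights (0.052 for Control 3), whose estimation did not fully converge, 6309 of 10950 genes passed (3081 higher, 3228 lower). Of the 60 members 33 passed (12 higher, 21 lower). The labels do not say whether libraries of the same replicate number were paired. The correlations of same-numbered deviations were -0.441, 0.632 and 0.338. They cannot decide this, since deviations from the mean of 3 libraries depend on each other and Control 3 stands apart. With the replicate block 0 genes and 0 members passed, with 499 genes at an unadjusted p under 0.05 in limma. With 1 library left out, 0 to 1194 genes and 0 to 3 members passed, the highest of each without Control 3, and 5 to 37 members had groups that did not overlap. These were 8.33% to 61.7% of members, beside 14% to 56.2% of all tested genes, and fewer libraries separate by chance more often. The leave-one-out medians were -0.071 to -0.023 for the large and -0.094 to 0.016 for the small subunit, and their difference -0.056 to 0.037. Of 236 values of the 22 named members under the other settings, 14 changed sign. MRPL12 turned to 0.0035 with quantile normalization, 0.00032 with scaling outside the mitochondrial genome and 0.019 with the length trend removed, MRPL19 to 0.0046 with voom, and MRPS7 to -0.063 with quantile normalization. With sample weights the turned values were 0.12 for MRPL12, -0.19 for MRPL47, 0.12 for MRPL58, -0.20 for MRPS10, 0.055 for MRPS12, 0.038 for MRPS18A, -0.057 for MRPS18C, 0.16 for MRPS26 and -0.25 for MRPS7. MTERF1, which is not a member and not in that count, turned to -0.12 with sample weights. With 1 library left out, the ranges that crossed 0 were -0.067 to 0.10 for MRPL12, -0.48 to 0.18 for MRPL19, -0.23 to 0.36 for MRPL47, -0.18 to 0.038 for MRPL58, -0.15 to 0.29 for MRPS10, -0.32 to 0.028 for MRPS12, -0.23 to 0.082 for MRPS18A, -0.023 to 0.11 for MRPS18B, -0.061 to 0.19 for MRPS18C, -0.19 to 0.13 for MRPS26, -0.40 to 0.12 for MRPS31 and -0.12 to 0.16 for MRPS7. Outside the members, the range for MTERF1 was -0.13 to 0.25. The cause was not tested. Counts of groups that do not overlap have no value under another variance model. Depth limits MRPS7 most, with as few as 26 reads.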
